A study of Arabidopsis thaliana with 4 samples.

Results

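Genes of nitrate uptake, nitrate reduction and glutamine synthesis were examined in RNA-seq counts of *Arabidopsis thaliana* rosettes, as 8 of the 36632 gene rows of the deposited tables. They were chosen by identifier, as the nitrate transporter *NRT1.1*, the nitrate reductases *NIA1* and *NIA2*, the nitrite reductase *NIR1*, the plastid glutamine synthetase *GLN2*, the cytosolic glutamine synthetases *GLN1;1* and *GLN1;2*, and the ferredoxin-dependent glutamate synthase *GLU1*. The choice was made with values of the comparison between *jmj26* and Col-0 already known, so their levels and fold changes are given as a description and without a test. The tested line was *jmj26*, a homozygous T-DNA insertion line of the histone demethylase gene *JMJ26* in the Col-0 background, with 2 libraries. The other genotype was Col-0, the wild type, also with 2 libraries. All 4 libraries came from whole rosettes at the 9-true-leaf stage, grown at 21°C with 16 h of light after 2 days of stratification at 4°C, and only 1 insertion line was sequenced. The rosettes were harvested individually, but no source says whether a library held 1 plant, so the errors measure only the spread between these libraries. In such bulk tissue, fewer cells of a type and less RNA per cell cannot be told apart.

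Plants take up nitrate through transporters of the plasma membrane, reduce it to nitrite in the cytosol with nitrate reductase, and reduce nitrite to ammonium in the plastid with nitrite reductase. Ammonium, which leaves also release in photorespiration, enters amino acids through the cycle of glutamine synthetase and glutamate synthase. In leaves, the plastid forms of both enzymes draw their energy and reductant from photosynthesis, and nitrate itself induces the genes of its reduction.

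The genes fall into small families of similar sequence, and the counting kept reads with several hits, so values of close copies are uncertain. The coding sequences of *NIA2* and *NIA1* were identical at 76.0% of 2702 aligned bases. Those of *GLN1;2* and *GLN1;1* were identical at 88.2% of 1069 aligned bases, and those of *GLN2* and *GLN1;2* at 76.8% of 1049. The longest identical coding stretch of each pair is shown from 5′ to 3′ on the coding strand, because a read longer than it cannot match both coding sequences without a mismatch. All positions are in TAIR10.1. The stretch of the nitrate reductases has 20 bases, at chr1:14159205-14159224 (plus strand) in *NIA2* and at chr1:29238742-29238761 (minus strand) in *NIA1*. The stretch of the cytosolic glutamine synthetases has 44 bases and crosses an intron in both genes, between 24655656 and 24655781 of chromosome 1 in *GLN1;2* and between 14933710 and 14933850 of chromosome 5 in *GLN1;1*, both on the minus strand. The plastid *GLN2* shares at most 20 bases with *GLN1;2*, at chr5:13831628-13831647 (plus strand) and chr1:24657069-24657088 (minus strand).
NIA2 and NIA1: aaggaacagaacatggtgaa
GLN1;2 and GLN1;1: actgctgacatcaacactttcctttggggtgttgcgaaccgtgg
GLN2 and GLN1;2: aagtggaactatgatggttc
The cytosolic glutamine synthetases thus had the longest shared stretch of these 3 pairs, and the read length is not given in the sources used here.

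The libraries were shallow and unequal. Total counts were 1998601 and 1497105 in *jmj26* and 1022041 and 740909 in Col-0. Counts per 1000000 (CPM) were taken on the effective library size of the tested gene rows, and 3 counts, used as the floor of detection, were 1.87 and 2.52 CPM in *jmj26* and 3.71 and 5.29 CPM in Col-0. Intervals and floors cover counting error only. The targeted gene *JMJ26* (AT1G11950, chromosome 1 from 4034479 to 4039065, minus strand) had 0 and 2 counts in *jmj26* and 1 and 0 in Col-0, too few to check the labels of the genotypes by this gene. The library kit keeps the strand of the transcript, but the strand setting of the counting is not given in the sources used here. Whether rows were counted on the strand opposite to the transcript was not tested. At *LHCB1.5*, an antenna protein gene of high expression in leaves, the gene row held 141 and 112 counts in *jmj26* and 23 and 29 in Col-0, whereas the noncoding RNA row on the other strand held 319846 and 224036 in *jmj26* and 157599 and 109579 in Col-0. These are counts before scaling, from libraries of unequal size, and most of the pair lay on the noncoding RNA row in every library. Own rows and rows of overlapping genes on the opposite strand are therefore given side by side, and a count of an own row cannot be taken as the abundance of the gene's transcript. Gene rows that overlap no counted gene on the opposite strand held 7.73% and 7.64% of gene counts in *jmj26*, against 4.40% and 5.57% in Col-0. Of the 8 nitrogen genes, 7 are rows of that kind.

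The 8 genes together had 408 and 250 counts in *jmj26*, against 30 and 70 in Col-0. Scaled to library size, this was 254 and 210 CPM in *jmj26* and 37.1 and 123 CPM in Col-0. The mean was 232 ± 30.9 CPM in *jmj26* and 80.3 ± 61.1 CPM in Col-0 (SD, n = 2 each), a ratio of 2.89. Both *jmj26* libraries lay above both Col-0 libraries, but the Col-0 libraries differed from each other by 3.33-fold and the *jmj26* libraries by 1.21-fold. Against Col-0 replicate 2 alone, the *jmj26* mean was 1.88-fold higher. Most of the counts came from *GLU1*, *GLN2*, *NIA2* and *NIR1*.

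**Figure D1:**
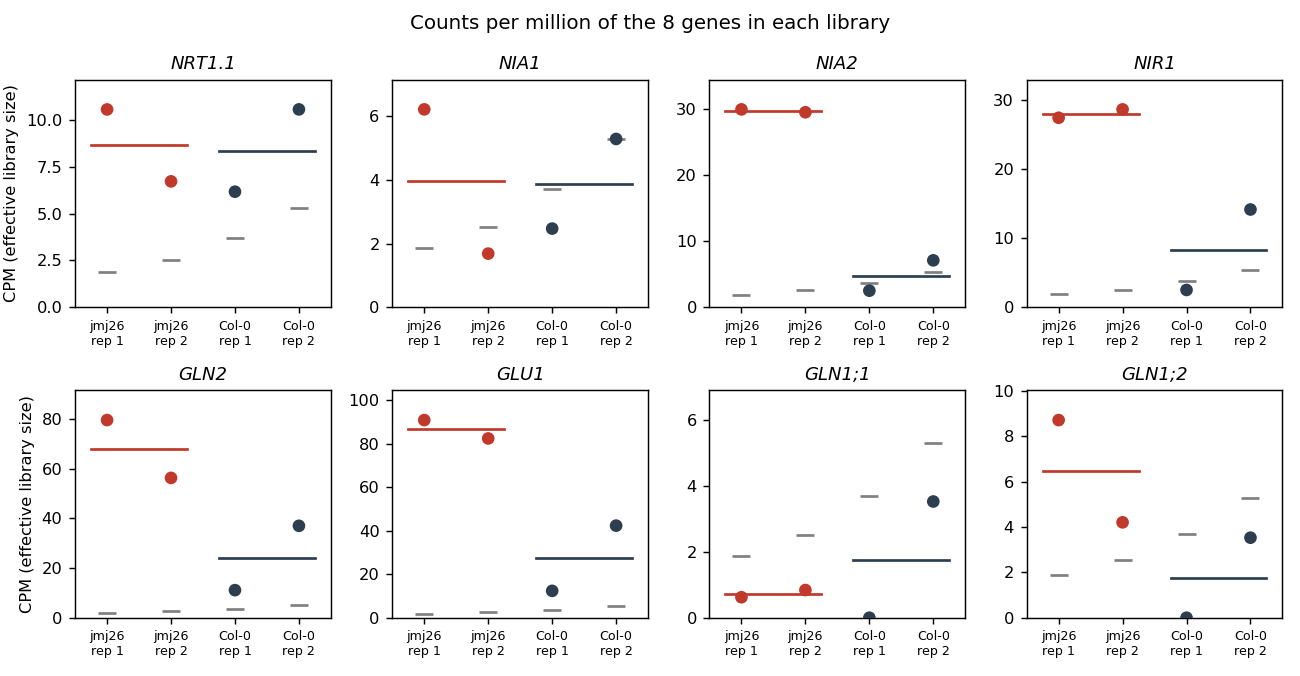
CPM of each of the 8 genes (y axes, on the effective library size) in the 2 *jmj26* libraries and the 2 Col-0 libraries. Points are libraries, long lines are genotype means and short grey lines mark 3 counts in that library. *NIA2*, *NIR1*, *GLN2*, *GLU1* and *GLN1;2* have both *jmj26* points above both Col-0 points, while those of *NRT1.1*, *NIA1* and *GLN1;1* overlap.

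Uptake of nitrate was represented by *NRT1.1* (AT1G12110, also *CHL1* or *NPF6.3*; chromosome 1 from 4105223 to 4109601, plus strand), which encodes a nitrate transporter of the plasma membrane that also acts as a nitrate sensor. It had 17 and 8 counts in *jmj26* and 5 and 6 in Col-0, or 10.6 and 6.73 CPM in *jmj26* and 6.18 and 10.6 CPM in Col-0. The libraries of the genotypes overlapped, and the means of 8.65 ± 2.72 CPM in *jmj26* and 8.38 ± 3.12 CPM in Col-0 (SD, n = 2 each) differed by less than the spread within either genotype. The log2 fold change of *jmj26* over Col-0 in the edgeR fit was 0.15 with a standard error of 0.51.

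Reduction of nitrate to nitrite is carried out by *NIA1* and *NIA2*, of which *NIA2* encodes the nitrate reductase that gives most of the activity in Arabidopsis rosettes. *NIA2* (AT1G37130, chromosome 1 from 14158452 to 14161938, plus strand) had 48 and 35 counts in *jmj26* and 2 and 4 in Col-0. This was 29.9 and 29.4 CPM in *jmj26*, against 2.47 and 7.06 CPM in Col-0. The *jmj26* libraries were close together and both were above both Col-0 libraries, of which replicate 1 was under the floor and replicate 2 had 1 count more than the floor. Means were 29.7 ± 0.307 CPM in *jmj26* and 4.76 ± 3.24 CPM in Col-0 (SD, n = 2 each). The log2 fold change was 2.72 with a standard error of 0.45, the highest of the 5 genes that entered the fit. The ratio rested on 6 counts in Col-0. *NIA1* (AT1G77760, chromosome 1 from 29235721 to 29239484, minus strand) had 10 and 2 counts in *jmj26* and 2 and 3 in Col-0, too few to enter the fit. Both Col-0 libraries and *jmj26* replicate 2 were at or under the floor, and the pooled ratio of *jmj26* over Col-0 was 1.18 with an exact 95% interval of 0.387 to 4.28. *NIA2* thus stood higher in *jmj26* in these counts, while for *NIA1* no difference was detectable at this depth. Whether the 2 nitrate reductases differed from each other in their response was not tested.

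Nitrite, which is toxic when it builds up, is reduced to ammonium by nitrite reductase, encoded by the single gene *NIR1* (AT2G15620, chromosome 2 from 6810395 to 6812941, plus strand). *NIR1* had 44 and 34 counts in *jmj26* and 2 and 8 in Col-0, or 27.4 and 28.6 CPM in *jmj26* and 2.47 and 14.1 CPM in Col-0. The genotypes did not overlap, but Col-0 replicate 1 was under the floor and replicate 2 lay well above it. Means were 28.0 ± 0.858 CPM in *jmj26* and 8.29 ± 8.23 CPM in Col-0 (SD, n = 2 each), with a log2 fold change of 1.9 and a standard error of 0.55. The SD in Col-0 was about as large as its mean.

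Ammonium is fixed into glutamine by glutamine synthetase. *GLN2* (AT5G35630, chromosome 5 from 13830429 to 13833542, plus strand) encodes the plastid form, the main one of leaves, which also refixes ammonium released by photorespiration. It had 128 and 67 counts in *jmj26* and 9 and 21 in Col-0, or 79.7 and 56.4 CPM in *jmj26* and 11.1 and 37.0 CPM in Col-0. Both *jmj26* libraries were higher than both Col-0 libraries, and *jmj26* replicate 2 was nearer to Col-0 replicate 2 than to *jmj26* replicate 1. Means were 68.0 ± 16.5 CPM in *jmj26* and 24.1 ± 18.3 CPM in Col-0 (SD, n = 2 each), and the log2 fold change was 1.60 with a standard error of 0.46.

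The cytosolic glutamine synthetases were near the floor. *GLN1;2* (AT1G66200, chromosome 1 from 24655115 to 24657703, minus strand), a cytosolic form of low affinity for ammonium, had 14 and 5 counts in *jmj26* and 0 and 2 in Col-0. Both Col-0 libraries were under the floor and both *jmj26* libraries above it, and the pooled ratio was 4.68 with an exact 95% interval of 1.13 to 41.4. *GLN1;1* (AT5G37600, chromosome 5 from 14933286 to 14935885, minus strand), a cytosolic form of high affinity, had 1 and 1 counts in *jmj26* and 0 and 2 in Col-0. All its libraries were under the floor, so no fold is given for it. These are also the genes with the 44 identical bases shown above, which makes the split of counts between them uncertain.

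Glutamine passes its amide nitrogen to 2-oxoglutarate through glutamate synthase. *GLU1* (AT5G04140, chromosome 5 from 1129785 to 1138488, plus strand) encodes the main ferredoxin-dependent form of leaves. It had 146 and 98 counts in *jmj26* and 10 and 24 in Col-0, the most of the 8 genes, or 90.9 and 82.4 CPM in *jmj26* and 12.4 and 42.3 CPM in Col-0. Both *jmj26* libraries were above both Col-0 libraries, and the Col-0 libraries were far apart. Means were 86.7 ± 5.97 CPM in *jmj26* and 27.3 ± 21.2 CPM in Col-0 (SD, n = 2 each), with a log2 fold change of 1.76 and a standard error of 0.43.

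*GLU1* is the only one of the 8 genes that overlaps a counted gene on the opposite strand. That gene is *BHLH101* (AT5G04150, chromosome 5 from 1138410 to 1139633, minus strand), which encodes a transcription factor of the iron deficiency response, and the overlap is 79 bases at the 3′ ends. The *BHLH101* row had 147 and 118 counts in *jmj26* and 100 and 66 in Col-0, or 91.5 and 99.3 CPM in *jmj26* and 124 and 116 CPM in Col-0. On this row both *jmj26* libraries were thus below both Col-0 libraries, in the direction opposite to the *GLU1* row. From which gene's transcripts the counts of either row came was not tested. The log2 fold change of *BHLH101* was -0.34 with a standard error of 0.17, which did not pass the test (adjusted p = 0.445 after Benjamini-Hochberg adjustment, quasi-likelihood test of edgeR). *GLU1* took 49.8% and 45.4% of the counts of the pair in *jmj26*, against 9.09% and 26.7% in Col-0. Among 13 pairs of nitrogen or leaf marker genes with at least 20 counts in every library, a display limit set after seeing the data, the gene's own share was higher in both *jmj26* libraries in 5, lower in 4 and overlapping in 4. The pairs include that of *GLU1*, and *CNX7* and *LHCB1.5* each enter with 2 opposite rows. The share over all overlapping genes was not computed, so nothing is read from these counts. With the counts of both rows summed, the log2 fold change at *GLU1* was 0.31. The nearest counted gene on the opposite strand of each of the other 7 genes was 2146 to 6275 bases away, so no such pair could be formed for them.

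**Figure D2:**
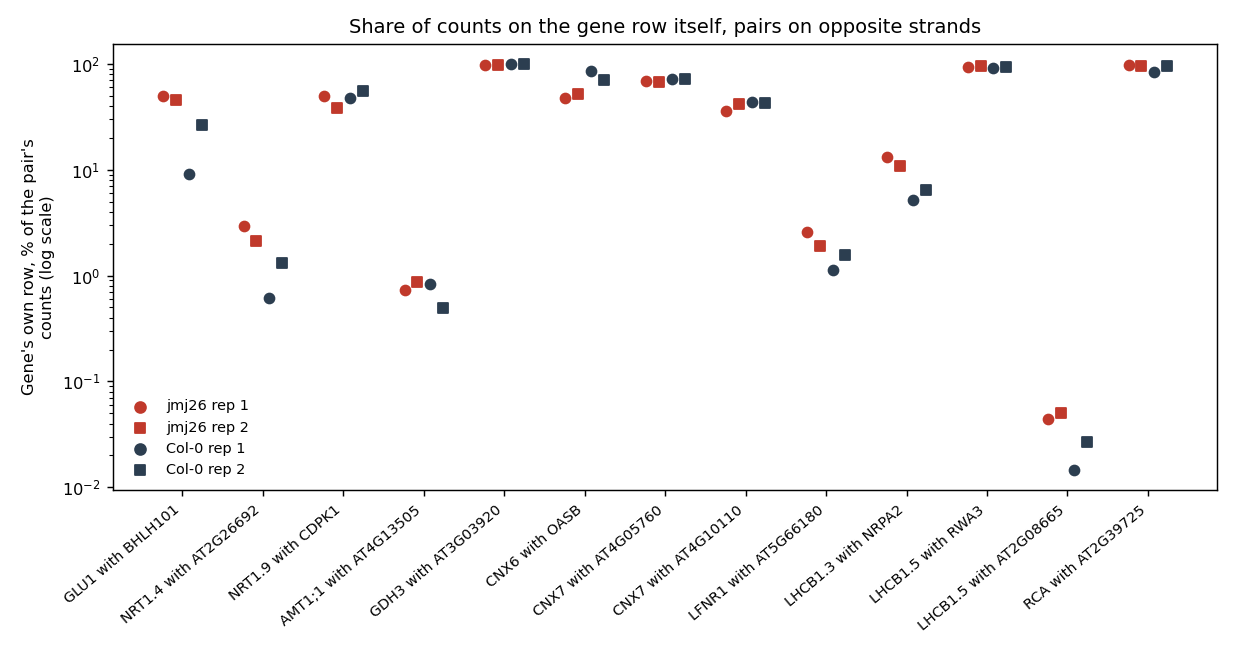
Share of a pair's counts that fell on the gene's own row (y axis, percent, log scale), for the 13 pairs of a nitrogen or leaf marker gene and an overlapping gene on the opposite strand (x axis) that have at least 20 counts in every library. Each point is a library, *jmj26* on the left of Col-0. *GLU1* is at 45.4% to 49.8% in *jmj26* and 9.09% to 26.7% in Col-0, *CNX6* with *OASB* runs the other way with 47.4% and 52.4% in *jmj26* and 85.2% and 70.0% in Col-0, and over all pairs the share spans 0.0146% to 99.4%.

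Own-row counts of different genes were compared per kilobase of exon. This does not compare transcript levels, because an own-row count cannot be taken as the abundance of the transcript. In *jmj26* the order of the mean levels was *GLN2* with 32.4 CPM per kb, *GLU1* with 15.8, *NIR1* with 12.8, *NIA2* with 9.25, *NRT1.1* with 3.93, *GLN1;2* with 3.83, *NIA1* with 1.25 and *GLN1;1* with 0.461. In Col-0 it was *GLN2* with 11.5 CPM per kb, *GLU1* with 4.98, *NRT1.1* with 3.81, *NIR1* with 3.78, *NIA2* with 1.49, *NIA1* with 1.23, *GLN1;1* with 1.1 and *GLN1;2* with 1.05. The plastid enzymes *GLN2* and *GLU1* had the highest means in both genotypes. *NRT1.1* stood below *NIA2* and *NIR1* in *jmj26*, whereas in Col-0 its level was next to that of *NIR1* and above that of *NIA2*. In Col-0 the libraries of every pair of neighbours in this order overlapped, from *GLN2* and *GLU1* down, so that neighbours did not differ beyond their spread. In *jmj26* the same held for *NRT1.1* and *GLN1;2*.

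The change of these genes was set beside that of all rows of the fit. Of the 8 genes, 5 passed the filter on low counts (*NRT1.1*, *NIA2*, *NIR1*, *GLN2* and *GLU1*), and *NIA1*, *GLN1;1* and *GLN1;2* did not. Of the 5232 gene rows tested, 3 had FDR < 0.05 in edgeR's quasi-likelihood test (0.0573%, with 0.0382% higher and 0.0191% lower in *jmj26*), and none of the 5 nitrogen genes was among them. DESeq2's test, which called 8 of the 5232 rows, called none of the 5 either. At an unadjusted p below 0.05 in edgeR, 13.6% of all tested rows were higher in *jmj26* and 2.12% lower. Of the tested rows without a gene on the opposite strand, which include *NIA2*, *NIR1* and *GLN2*, 37.9% were higher at that level. Both *jmj26* libraries lay above both Col-0 libraries for 5 of the 8 genes (*NIA2*, *NIR1*, *GLN2*, *GLN1;2* and *GLU1*). The same held for 26.8% of all tested rows, for 51.3% of the tested rows without a gene on the opposite strand and for 18.1% of those with one. The choice of the 8 genes used this comparison, so nothing is read from these counts.

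Without a fit, as the ratio of mean CPM, the median log2 fold change over the 8 genes was 1.58, and 1.66 over the 7 genes without *GLN1;1*. By the same measure the median was 0.015 over 5230 tested rows with a count in both genotypes and 0.58 over the 1361 of them without a gene on the opposite strand. In the edgeR fit, the median was 0.60 among the 1362 tested rows that overlap no gene of the opposite strand, with quartiles of -0.076 and 1.7. Of these rows, 3.01% had a higher log2 fold change than *NIA2*, 18.0% a higher one than *NIR1*, 29.0% a higher one than *GLN2* and 63.6% a higher one than *NRT1.1*. The log2 fold changes of *NIR1* and *GLN2* were thus close to the upper quartile of such rows, *NIA2* was further out and *NRT1.1* was below their median. Without Col-0 replicate 1, the log2 fold changes of *GLN2*, *NIR1*, *GLU1* and *NIA2* lay between 0.75 and 1.93 and that of *NRT1.1* was -0.39. *GLU1*, which has a gene on the opposite strand, can be set against the 3870 tested rows of that kind, whose median was -0.031 with quartiles of -0.20 and 0.18. However, the overlap of 79 bases covers only 0.9% of *GLU1*. Of the 1362 rows without any overlap, 23.3% lay above *GLU1*, a share between those for *NIR1* and *GLN2*.

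**Figure D3:**
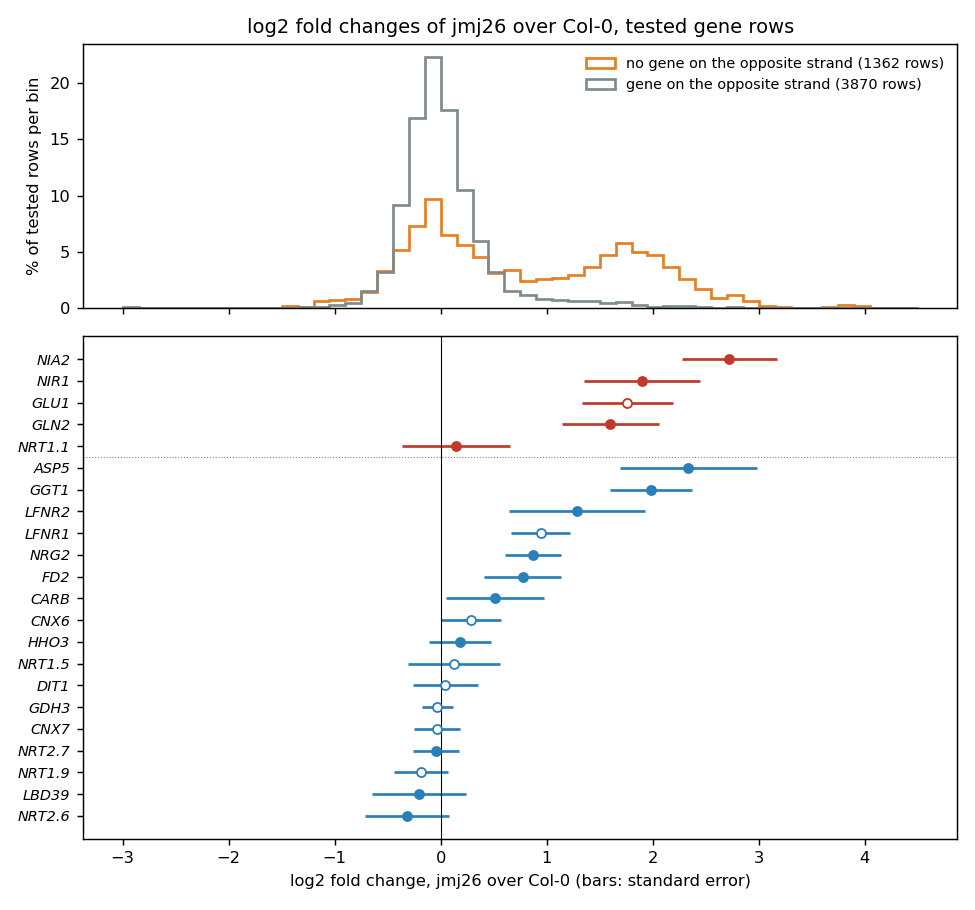
Upper panel, distribution of the log2 fold change, *jmj26* over Col-0 (x axis), among tested gene rows, in percent of rows per bin (y axis, end bins hold all values beyond them), for 1362 rows without and 3870 rows with a gene on the opposite strand. Lower panel, log2 fold changes with standard errors of the 5 tested genes of nitrate assimilation and glutamine synthesis (red) and of the 17 other nitrogen genes tested (blue), with open circles for genes that overlap a counted gene on the opposite strand. *NIA2* (2.72) and *ASP5* (2.34) lie furthest to the right, and *NRT1.1* (0.15) lies with the nitrate transporters near 0.

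Own rows of leaf genes were also higher in *jmj26* in these counts, without passing the test. The 6 leaf marker genes, which encode Rubisco small subunits, Rubisco activase and antenna proteins, were all detected and summed to 1450 and 1331 CPM in *jmj26*, against 330 and 716 CPM in Col-0. All 6 had both *jmj26* libraries above both Col-0 libraries, with log2 fold changes of 0.94 to 1.86 and a median of 1.49, and none had FDR < 0.05. *RCA* (Rubisco activase), for example, had 818 and 574 counts in *jmj26*, against 58 and 129 in Col-0. At *LHCB1.5*, the own row held 0.0441% and 0.05% of the pair with AT2G08665 in *jmj26*, and 0.0146% and 0.0265% in Col-0. These own rows thus do not give the level of leaf transcripts. Col-0 replicate 1, the library with the lowest sum of the 8 nitrogen genes, also had the lowest sum of the leaf genes and the lowest share of counts in rows without a gene on the opposite strand. The part of the leaf genes, and of that share, in the values of the nitrogen genes was not tested. Taken as CPM of the counts in rows without a gene on the opposite strand, the 7 nitrogen genes of that kind had 2048 and 1619 in *jmj26* and 538 and 1424 in Col-0, a ratio of means of 1.87. On that scale both *jmj26* libraries still lay above both Col-0 libraries, with *jmj26* replicate 2 close to Col-0 replicate 2.

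**Figure D4:**
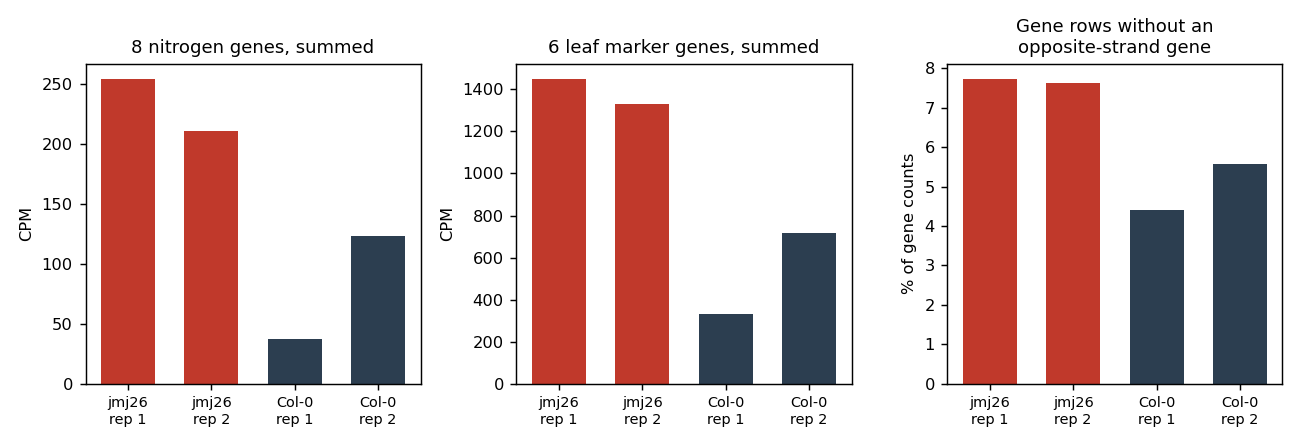
Sums per library (bars, *jmj26* in red and Col-0 in blue), as CPM of the 8 nitrogen genes, CPM of the 6 leaf marker genes and the percent of gene counts in rows without a gene on the opposite strand. In all 3 panels both *jmj26* bars exceed both Col-0 bars, and Col-0 replicate 1 is the lowest library (37.1 CPM, 330 CPM and 4.40%).

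Markers of other tissues a rosette sample could hold mostly had few counts on their own rows. Because an own-row count cannot be taken as transcript abundance, these values cannot show whether such tissues were present. All 5 flower markers had at most 3 counts in every library, and the floral identity genes *AG*, *AP3* and *PI* had none. The 3 senescence markers summed to 0.622 and 0.841 CPM in *jmj26* and 0 in both Col-0 libraries, with no count of *SAG12*. The 6 root markers summed to 56.6 and 38.7 CPM in *jmj26* and 55.6 and 58.2 CPM in Col-0. Most of that was *GL2*, which is also active in leaf hairs, with 70 and 35 counts in *jmj26* and 38 and 28 in Col-0, and *MYB36*, a gene of the root endodermis, had none.

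The pattern of the nitrogen genes over the 4 libraries was shared by many rows. The mean of the 5 fitted genes, as mean-centred log2(CPM + 1), was nearest to AT3G50690, *NRPB1* (AT4G35800, the largest subunit of RNA polymerase II) and AT1G64330, at Euclidean distances of 0.033, 0.089 and 0.104 over 4 libraries. *NRPB1* had 30 and 20 counts in *jmj26* and 2 and 5 in Col-0. Among the 5226 rows compared, the median distance was 1.98 and 199 rows lay within 0.5. With 4 libraries these distances describe likeness and nothing more.

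The pathway around these enzymes was read from 81 other nitrogen genes in 5 lists. Of these, 35 had at most 3 counts in every library and 17 could be tested. None of the 17 had FDR < 0.05 in edgeR's quasi-likelihood test or in DESeq2, against 3 of all 5232 tested rows (0.0573%) in edgeR and 8 in DESeq2. At an unadjusted p below 0.05 in edgeR, 4 were higher in *jmj26* (*GGT1*, *ASP5*, *NRG2* and *LFNR1*) and none was lower, beside 13.6% higher and 2.12% lower among all tested rows. The first 3 of these genes have no gene on the opposite strand, and 37.9% of tested rows of that kind were higher at that level. Their median log2 fold change was 0.18, beside 0.013 over all tested rows. The median was 0.64 for the 10 without a gene on the opposite strand and 0.043 for the 7 with one.

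Among 17 nitrate transport genes, 4 were tested and none passed in either direction, with log2 fold changes of -0.32 to 0.13 and a median of -0.12. *NRT2.7*, a transporter that loads nitrate into the vacuoles of seeds, had 251 and 154 counts in *jmj26* and 141 and 67 in Col-0 (log2 fold change -0.04, SE 0.22). *NRT1.9*, which acts in phloem transport of nitrate, had 65 and 38 counts in *jmj26* and 32 and 25 in Col-0. The *CDPK1* row on its opposite strand had 66 and 61 counts in *jmj26* and 35 and 20 in Col-0. *NRT1.5*, which loads nitrate into the xylem in roots, had 20 and 18 counts in *jmj26* and 7 and 10 in Col-0. *NRT2.6* had 21 and 13 counts in *jmj26* and 15 and 6 in Col-0. *NRT1.1* and these 4 transporters thus showed no change that the fit could resolve at this depth. *NRT1.4*, which stores nitrate in the petiole, had 8 and 5 counts in *jmj26* and 1 and 1 in Col-0, while the noncoding RNA row on its opposite strand, AT2G26692, had 265 and 228 in *jmj26* and 161 and 75 in Col-0 (log2 fold change 0.09, SE 0.22).

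None of the 5 ammonium transporters could be tested on its own row. *AMT1;1*, a main ammonium transporter of the plasma membrane, had 14 and 11 counts in *jmj26* and 9 and 3 in Col-0. The noncoding RNA row on its opposite strand, AT4G13505, had 1902 and 1244 counts in *jmj26* and 1075 and 610 in Col-0, with a log2 fold change of -0.11 and a standard error of 0.15. The own row of *AMT1;1* held 0.731% and 0.877% of the pair in *jmj26* and 0.830% and 0.489% in Col-0, and the genotypes overlapped in both rows.

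In glutamine, glutamate and asparagine metabolism, 5 of 21 genes were tested and none passed, with log2 fold changes of -0.03 to 2.34 and a median of 0.51. *GGT1*, a peroxisomal glutamate:glyoxylate aminotransferase of photorespiration, had 116 and 68 counts in *jmj26* and 8 and 14 in Col-0. Its log2 fold change was 1.99 with a standard error of 0.39, and its adjusted p was 0.109 (edgeR, Benjamini-Hochberg). *ASP5*, the plastid aspartate aminotransferase, had 29 and 14 counts in *jmj26* and 1 and 3 in Col-0 (log2 fold change 2.34, SE 0.65, adjusted p = 0.133 in edgeR). Both genes had *jmj26* libraries above the Col-0 libraries without passing the adjusted threshold. *GDH3*, a glutamate dehydrogenase, had 317 and 240 counts in *jmj26* and 173 and 110 in Col-0, the most of the 17 tested genes, with a log2 fold change of -0.03 and a standard error of 0.15. Its own row held 98.8% and 98.0% of the pair with AT3G03920 on the opposite strand in *jmj26*, and 99.4% and 99.1% in Col-0. *DIT1*, the plastid carrier that brings in 2-oxoglutarate for *GLU1*, had 29 and 25 counts in *jmj26* and 16 and 10 in Col-0 (log2 fold change 0.04, SE 0.31). *CARB*, the large subunit of carbamoyl phosphate synthetase, which uses glutamine, had 16 and 13 counts in *jmj26* and 7 and 3 in Col-0 (log2 fold change 0.51, SE 0.46). The values of *GLU1* and of its substrate carrier *DIT1* thus stood apart in size, a difference that was not tested.

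In nitrate signalling, 3 of 21 genes were tested and none passed, with a median log2 fold change of 0.18. *NRG2*, a regulator that acts upstream of *NRT1.1* in nitrate signalling, had 64 and 44 counts in *jmj26* and 18 and 11 in Col-0 (log2 fold change 0.87, SE 0.27, adjusted p = 0.157 in edgeR). *HHO3*, a repressor of nitrate starvation genes, had 40 and 25 counts in *jmj26* and 16 and 12 in Col-0 (log2 fold change 0.18, SE 0.29). *LBD39*, a repressor of nitrate-induced genes that include *NIA1* and *NIA2*, had 13 and 15 counts in *jmj26* and 8 and 8 in Col-0 (log2 fold change -0.21, SE 0.44). *NLP7*, the main activator of the nitrate response, had 4 and 3 counts in *jmj26* and 4 and 0 in Col-0 and was not tested.

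Among 17 genes of cofactors and reductant supply, 5 were tested and none passed, with log2 fold changes of -0.04 to 1.29 and a median of 0.77. The molybdenum cofactor, which nitrate reductase needs, is made by the CNX proteins. *CNX7* had 85 and 73 counts in *jmj26* and 45 and 35 in Col-0 (log2 fold change -0.04, SE 0.21), and *CNX6* had 46 and 44 counts in *jmj26* and 23 and 14 in Col-0 (log2 fold change 0.28, SE 0.28). Both encode subunits of molybdopterin synthase, and their difference from *NIA2* was not tested. On the strand opposite *CNX7*, AT4G10110 had 150 and 100 counts in *jmj26* and 59 and 46 in Col-0. AT4G05760, also opposite *CNX7*, had 39 and 35 counts in *jmj26* and 17 and 14 in Col-0. *FD2*, the main leaf ferredoxin and an electron donor of *NIR1* and *GLU1*, had 46 and 54 counts in *jmj26* and 14 and 15 in Col-0 (log2 fold change 0.77, SE 0.36). The leaf ferredoxin reductase *LFNR2* had 29 and 12 counts in *jmj26* and 2 and 6 in Col-0 (log2 fold change 1.29, SE 0.64). *LFNR1* had 139 and 75 counts in *jmj26* and 26 and 27 in Col-0 (log2 fold change 0.94, SE 0.28), and its own row held 2.59% and 1.92% of the counts it shared with AT5G66180 on the opposite strand in *jmj26*, against 1.14% and 1.55% in Col-0. The *jmj26* libraries of *FD2* and *LFNR1* lay above the Col-0 libraries, those of *LFNR2* overlapped them, and none passed the adjusted test. The root-type ferredoxin reductase *RFNR1* had 3 and 2 counts in *jmj26* and 2 and 2 in Col-0, at or under the floor in every library.

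Of the 25 gene rows on the opposite strand of these nitrogen genes, 11 were tested and none passed FDR < 0.05 in edgeR, with 1 at an unadjusted p below 0.05, beside 821 of all 5232 tested rows, and a median log2 fold change of 0.16. That row was *OASB* (AT2G43750), the plastid cysteine synthase opposite *CNX6*, with 51 and 40 counts in *jmj26* and 4 and 6 in Col-0 (log2 fold change 2.14, SE 0.39, adjusted p = 0.109 in edgeR). The row with the most counts, AT5G66180 opposite *LFNR1*, had 5224 and 3825 counts in *jmj26* and 2252 and 1712 in Col-0, with a log2 fold change of 0.16 and a standard error of 0.12. The log2 fold changes of the other 8 rows with the highest CPM lay between -0.11 and 0.38. The value of *OASB* was higher than those of the other 9 rows named here, without passing the adjusted test.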

How the data were processed

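RNA-seq of poly(A) RNA was compared between 2 libraries of *jmj26* and 2 of Col-0, grouped by the sample labels. The authors aligned trimmed reads with STAR 2.7 to Araport11 and deposited raw counts from TEcount for 36632 genes and 31189 transposon copies, keeping reads with several hits. The submitters' processing notes also name featureCounts 2.0.1, whose gene table was not used here. Gene positions and overlaps were taken from the TAIR10.1 annotation of RefSeq, which holds all 36632 identifiers.

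Gene counts were filtered with filterByExpr, scaled by TMM and tested with glmQLFTest (legacy = TRUE) in edgeR 4.0.16 (R 4.3.3), with Benjamini-Hochberg adjustment over 5232 rows and a threshold of 0.05. The biological coefficient of variation was 16.6%. On simulated counts with 200 of 5232 genes changed by a log2 fold change of 2, 87% were recovered with 6 false calls. The simulation gave every gene the same dispersion and the same expected share in both libraries of a genotype, unlike the real Col-0 libraries. The recovered share therefore does not give the power of the test in these data. Intervals of pooled ratios are exact conditional binomial intervals (scipy 1.17.1). Sequences were aligned with Biopython 1.88.

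The 8 genes, the gene lists and the tests were chosen with earlier results of these data known. Named are the 8 genes, genes overlapping them on the opposite strand, *JMJ26*, the tested other nitrogen genes (at most 20), the 10 rows opposite them with the highest CPM and the 3 rows of most similar pattern. *NRT1.4*, *AMT1;1*, *NLP7*, *LHCB1.5*, *RCA*, *GL2* and other untested or marker genes were named after their values were seen. Alternatives were other scalings, filters and tests (DESeq2 1.42.0), summed strands, transposon rows in the fit, each library left out and the replicate number as a block. A crossed block and scaling to rows without a gene on the opposite strand were added after seeing the data.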

Additional observations from a re-analysis of the deposited data

How the results depend on the processing

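The median log2 fold change of the 8 genes, 1.58, was 3.06 without Col-0 replicate 2, where *GLN1;2* and *GLN1;1* had no Col-0 count, or 2.61 over 7 genes with *GLN1;2* set against 3 counts. It ranged between 0.74 and 3.06 when 1 library was left out, the lowest value being without Col-0 replicate 1. It was 0.90 with the strands summed and 1.03 as CPM of the counts in rows without a gene on the opposite strand. Without Col-0 replicate 1 the log2 fold changes were 1.93 for *NIA2*, 0.85 for *NIR1*, 0.91 for *GLU1*, 0.75 for *GLN2* and -0.39 for *NRT1.1*, and without Col-0 replicate 2 they were 3.44 for *NIA2*, 3.35 for *NIR1*, 2.71 for *GLU1* and 2.51 for *GLN2*. In the other settings *GLU1* gave 0.31 with the strands summed and 1.32 with TMM on rows without a gene on the opposite strand, which moved the median of all rows to -0.43.

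The number of gene rows with FDR < 0.05, 3 of those tested, was 592 with no filter on low counts, 0 with at least 10 counts in every library (215 at an unadjusted p below 0.05 in edgeR), 1 with gene and transposon rows together, 8 with DESeq2's Wald test, 64 with the replicate number as a block and 152 with the crossed block, and it ranged from 1 to 445 when 1 library was left out. The correlation of same-numbered deviations across genes was -0.16, and no label explains the shared numbers. Of the other nitrogen genes, 3 were called with no filter (*ASN2*, *ASP5* and *GGT1*), 1 with the replicate block, 1 with the crossed block (*GGT1* in both) and 0 to 2 with 1 library left out, the 2 (*ASP5* and *GGT1*) without Col-0 replicate 2. Of the 8 genes, 4 were called with no filter, where 592 of all 22317 rows were called. The replicate block called 2 of 5, beside 64 of 5232 rows, and the crossed block 3 of 5, beside 152 of 5232. None was called in the other settings that kept every library. The choice of the 8 genes used this comparison, so nothing is read from these calls. At this depth the 3 genes that did not enter the fit, *NIA1*, *GLN1;1* and *GLN1;2*, cannot show a change of moderate size.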
